A study of Mus musculus with 6 samples.

Results

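The Hedgehog pathway was examined in mouse oviducts through 9 genes, the ligands Shh, Ihh and Dhh, the receptor Ptch1, the ligand-binding antagonist Hhip, the signal transducer Smo and the transcription factors Gli1, Gli2 and Gli3. They are 9 of the 18193 genes named on the array, and were chosen with earlier results of these data known. Every probe set (the group of short probes that reports on a transcript) whose platform annotation named 1 of these genes and no other was taken, without regard to its values, which gave 21 probe sets, and 0 further probe sets named a member together with another gene. All oviducts came from MF1 mice, an outbred stock, collected at embryonic day 2.5 after mating to wild-type males. The groups were 3 wild-type samples (Wt1 +/+) and 3 heterozygous samples (Wt1 ko/+), with 1 array per sample and 1 µg of total RNA per array. The labels do not describe the ko allele, nor whether a sample is 1 animal or a pool, so each p-value covers the spread between the arrays, part of which may be technical.

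Hedgehog ligands are secreted signals that bind Patched receptors on nearby cells. Unbound Ptch1 holds Smo inactive; ligand binding frees Smo, which acts in the primary cilium and turns the Gli proteins from repressors into activators. Ptch1, Gli1 and Hhip are themselves induced by the pathway and so dampen or report it. In the female reproductive tract Ihh is known as an epithelial signal, induced by progesterone, that acts on the stroma beneath. Wt1 is a transcription factor of the zinc finger class. The comparison asks what the loss of 1 allele does to oviductal transcripts, here those of Hedgehog signalling.

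Values are log2 intensities after quantile normalization, and their median over all probe sets was 7.31. Brightness depends on the probe, so levels are compared between samples and not between probe sets. No detection calls were used, so dim values may or may not exceed background. Differences are heterozygous minus wild type, fitted with limma over all 45037 probe sets, two-sided; a probe set passed at a Benjamini-Hochberg adjusted p under 0.05. Over the whole array 3 probe sets passed, 1 higher and 2 lower, and 2334 had an unadjusted p under 0.05. The count of 3 became 1 without wild-type replicate 3 and 0 without any other array. The intensity ratio of 3' to 5' Actb control probe sets, a sign of RNA integrity, was 5.90 in wild-type replicate 3 and 1.67 to 2.49 in the other 5 arrays. The Wt1 probe set stood at 12.17, 12.06 and 11.67 in wild-type replicates 1, 2 and 3 and at 11.12, 11.27 and 11.79 in heterozygous replicates 1, 2 and 3. The heterozygous mean was thus lower by 0.57, with overlap between the genotypes (limma adjusted p = 0.933), and the labels do not place the altered part of the gene, so this level is a weak check of them. Of the oviduct markers, all 6 of secretory epithelium, Ovgp1 among them, and all 5 measured ones of multiciliated cells had means above the array median. So had all 6 smooth muscle, all 6 stromal, all 5 endothelial and all 5 mesothelial markers, 4 of 5 uterine and 3 of 6 ovarian ones. This level therefore does not single out the oviduct epithelium.

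None of the 21 Hedgehog probe sets passed the threshold in limma (adjusted p from 0.635 to 0.988), against 0.00666% of all probe sets. An unadjusted p under 0.05 was found for 2 of 21, a dim probe set of Dhh and the brightest of Smo, against 5.18% of all probe sets. Smo and Gli2 lay lower in heterozygous oviducts at every probe set, Gli1 lay slightly higher, and Ihh and the bright Ptch1 probe set differed by less than the spread between arrays. Of the 21 probe sets 8 were higher and 13 lower, with a median log2 difference of -0.09 beside -0.01 over all probe sets. The genotypes did not overlap in 4 of the 21, against 10.5% of all probe sets. Of these 4, a probe set of Dhh and another of Gli3 were higher in heterozygous samples, against 4.67% of all probe sets in that direction. A probe set of Smo and another of Gli2 were lower, against 5.87%. The count of 4 became 8 without wild-type replicate 1, where 30.6% of all probe sets did not overlap, and 7 without wild-type replicate 3, where 18.3% did not. Of the 9 Hedgehog probe sets with a higher group mean above the array median, 2 did not overlap, against 11.8% of such probe sets.

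**Figure D1:**
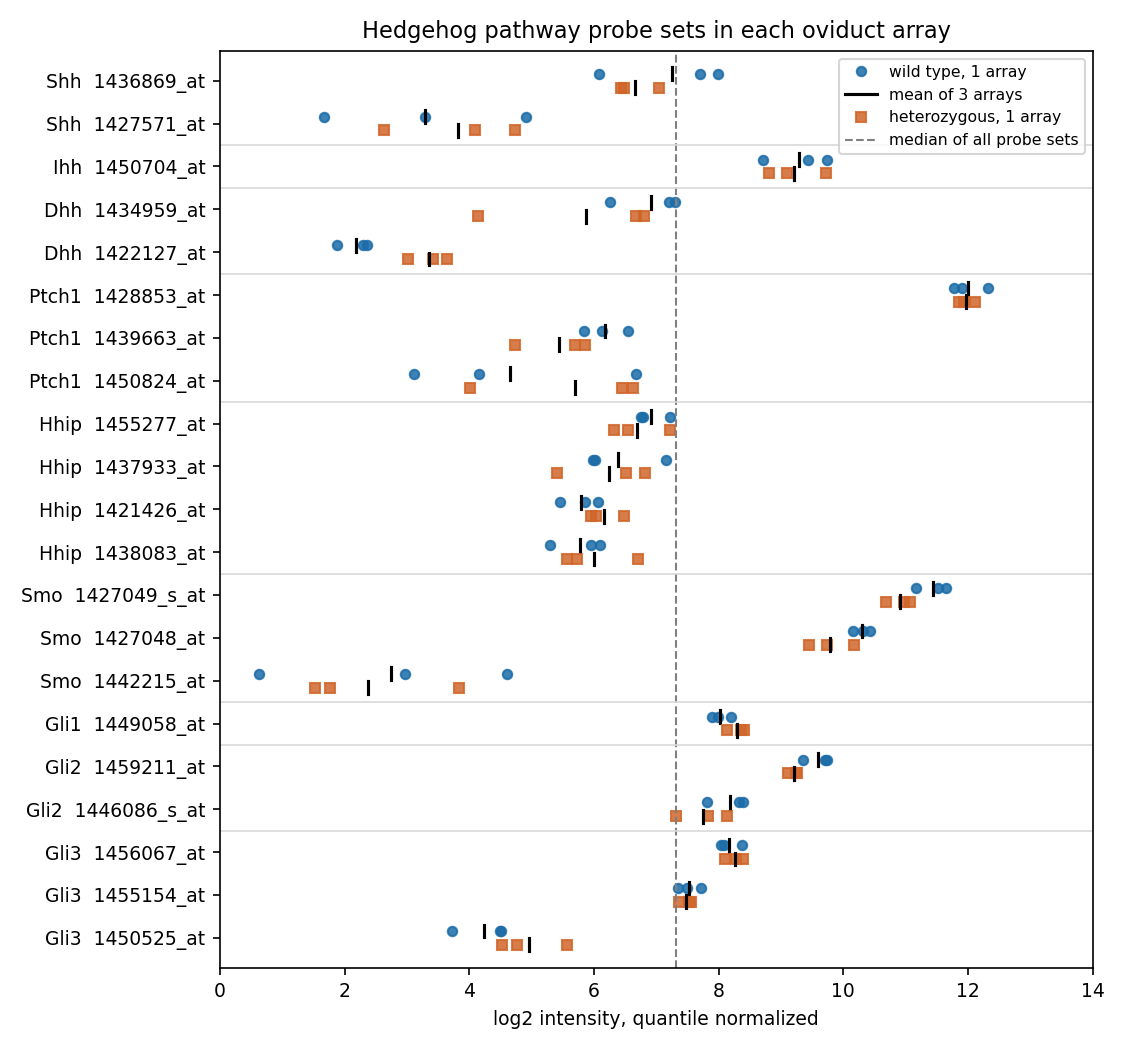
Quantile-normalized log2 intensity (horizontal axis) of the 21 Hedgehog probe sets in each of the 6 arrays; blue circles are wild-type and orange squares heterozygous samples, black ticks are means of 3 arrays, and the dashed line is the median of all probe sets, 7.31. The heterozygous squares lie to the left at the brightest Smo probe set and at the brighter Gli2 probe set, and both genotypes coincide at the bright Ptch1 probe set near 12.

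Ihh, the ligand known from reproductive tract epithelium, was read by 1 probe set. It stood at 8.72, 9.44 and 9.73 in wild-type replicates 1, 2 and 3, and at 9.09, 9.72 and 8.81 in heterozygous replicates 1, 2 and 3. The genotypes spanned the same range, with wild-type replicate 1 and heterozygous replicate 3 the lowest arrays. The difference was -0.09 with a 95% confidence interval from -0.97 to 0.80, so a difference of any size within that range is compatible with these 6 arrays. Its sign turned without wild-type replicate 3 (0.13) or heterozygous replicate 3 (0.11), and once the 3' to 5' ratio entered the fit (0.15).

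Shh, the ligand of neural tube and limb patterning, was dim. Its brighter probe set gave 6.08, 7.71 and 7.99 in the wild-type arrays and 7.05, 6.43 and 6.48 in the heterozygous arrays, in the order of the replicate numbers. Wild-type replicate 1 lay below every heterozygous array and the other wild-type arrays above, so the genotypes overlapped (difference -0.60, 95% confidence interval -1.92 to 0.72). Leaving out wild-type replicate 1 gave -1.19, leaving out wild-type replicate 3 gave -0.24, and the value was -0.055 once the 3' to 5' ratio entered the fit. The dimmer Shh probe set scattered from 1.68 to 4.90 over the 6 arrays and gave a difference of the opposite sign, 0.53, which turned to -0.27 without wild-type replicate 3.

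Dhh, the ligand known from Schwann cells of nerves and from the gonads, had a pair of dim probe sets that disagreed. The brighter gave 6.25, 7.29 and 7.20 in wild-type and 4.14, 6.80 and 6.67 in heterozygous replicates 1, 2 and 3. Heterozygous replicate 1 stood far below the other arrays, and the rest overlapped; the difference of -1.04 had a standard error of 0.78, and was -0.18 without heterozygous replicate 1. The dimmer probe set gave 2.30, 1.88 and 2.35 in wild-type and 3.02, 3.64 and 3.41 in heterozygous replicates. Every heterozygous array was above every wild-type array there, by a mean of 1.18 (standard error 0.23, limma p = 0.00243, adjusted p = 0.635, exact permutation p = 0.1). The deposited intensities behind this were 3.78 to 5.54 in wild-type and 8.01 to 12.5 in heterozygous samples, near the bottom of the scale. With log2 of the intensity plus 16, which damps differences among very dim values, it was 0.36. Markers of Schwann cells, 4 of 6 listed and measured, had a summed deposited intensity of 1397 to 1800 in wild-type and 1327 to 1738 in heterozygous arrays. On normalized values 1 marker was higher and 3 lower. Granulosa and luteal markers of the neighbouring ovary, another site of Dhh, summed to 1252 to 1645 and 1441 to 1563, with 2 of 6 higher. No marker of either list had a mean deposited intensity at the floor of 1. Amh of the ovary list was nevertheless dim, at 6.48 to 20.1, so this does not show detection. The part of these cells in the Dhh values was not tested.

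Ptch1, the receptor and a standard readout of pathway activity, was read by 3 probe sets. The bright probe set stood at 12.32, 11.78 and 11.90 in wild-type and at 11.94, 11.86 and 12.11 in heterozygous replicates 1, 2 and 3. Means were 12.00 ± 0.28 (SD, n = 3) and 11.97 ± 0.13 (SD, n = 3), and all heterozygous arrays lay inside the wild-type range. The difference was -0.03, with a 95% confidence interval from -0.51 to 0.45. It turned to 0.09 with array weights, to 0.13 without wild-type replicate 1 and to 0.02 when heterozygous replicate 2 was left out. Both other Ptch1 probe sets lay below the array median and pointed in opposite directions. The dimmest ranged from 3.11 to 6.68 in wild-type arrays and from 4.01 to 6.63 in heterozygous arrays, a spread larger than its difference of 1.05. Leaving out wild-type replicate 1 gave 2.06, leaving out wild-type replicate 2 gave 0.28, and the value was 0.24 once the 3' to 5' ratio entered the fit. The remaining one gave 6.12, 5.84 and 6.54 against 5.70, 5.86 and 4.73, a difference of -0.74 in which heterozygous replicate 2 lay just above wild-type replicate 2 (limma p = 0.0879, adjusted p = 0.933, exact permutation p = 0.2).

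Hhip, a membrane protein that binds Hedgehog ligands and blunts the signal, had 4 probe sets, all below the array median. Their differences were 0.36, 0.22, -0.14 and -0.23, and the genotypes overlapped at each. The brightest gave 7.22, 6.79 and 6.75 in wild-type and 6.55, 7.21 and 6.32 in heterozygous replicates 1, 2 and 3. In all 4 probe sets wild-type replicate 1 was the highest wild-type array and heterozygous replicate 2 the highest heterozygous array, so these probe sets varied alike within each genotype while the genotypes did not separate. The sign of the -0.14 turned without wild-type replicate 1 (0.25) or heterozygous replicate 3 (0.28). That of the 0.22 turned without wild-type replicate 2 (-0.03) or heterozygous replicate 2 (-0.14).

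Smo, the transmembrane protein that passes the signal on once Ptch1 is bound, lay lower in heterozygous oviducts at all 3 of its probe sets. The brightest stood at 11.16, 11.53 and 11.64 in wild-type replicates 1, 2 and 3 and at 11.07, 10.98 and 10.68 in heterozygous replicates 1, 2 and 3. Every heterozygous array was below every wild-type array, although heterozygous replicate 1 and wild-type replicate 1 were close. The deposited intensities were 2324, 2934 and 3269 against 2179, 1990 and 1631. The means of 11.44 ± 0.25 (SD, n = 3) and 10.91 ± 0.20 (SD, n = 3) differed by -0.53 (standard error 0.20), so wild type was 1.45-fold brighter. The unadjusted limma p was 0.0374 and the adjusted p 0.933, and an exact two-sided permutation test gave p = 0.1, the smallest that 3 arrays against 3 allow.

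The other bright Smo probe set gave 10.31, 10.42 and 10.16 in wild-type and 10.17, 9.74 and 9.46 in heterozygous replicates. Only heterozygous replicate 1 reached the wild-type range, marginally above wild-type replicate 3, and the difference was -0.51 (standard error 0.22, limma adjusted p = 0.933). Both were designed from the same sequence record, so they are not independent readings, and the brightest carries a suffix that marks probes that may match further transcripts. The third Smo probe set was near the floor, at 0.63 to 4.61 in wild-type and 1.53 to 3.83 in heterozygous arrays, and its difference of -0.36 turned to 0.57 without wild-type replicate 3 and to 0.06 without heterozygous replicate 1. Over all alternatives the difference ranged from -0.67 to -0.38 at the brightest probe set and from -0.70 to -0.34 at the other bright one, and the direction was kept in each. With whole oviducts, fewer cells of a type and less RNA per cell cannot be told apart.

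**Figure D2:**
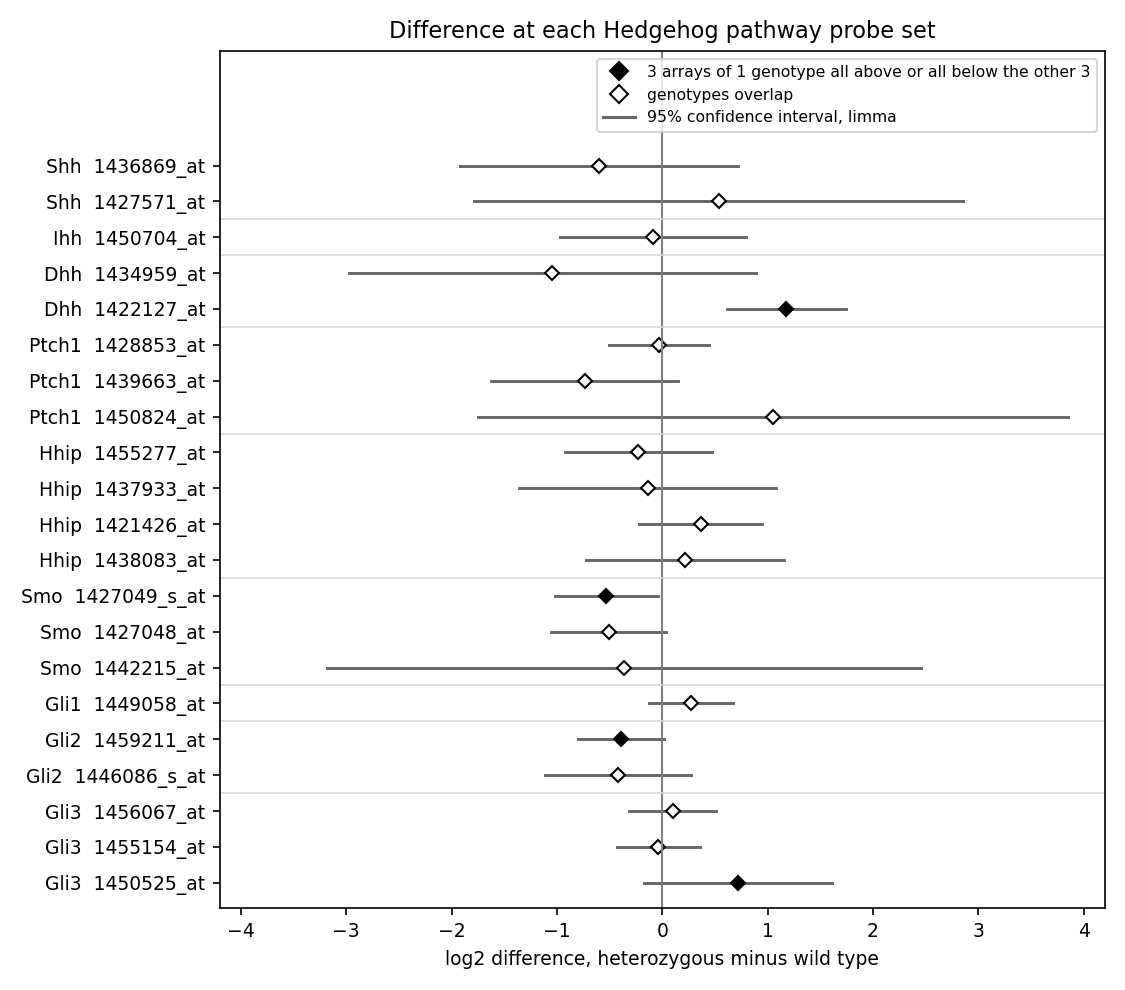
Log2 difference, heterozygous minus wild type (horizontal axis), at each of the 21 Hedgehog probe sets; diamonds are the fitted differences, filled where the genotypes did not overlap in 3 against 3 arrays, and lines are 95% confidence intervals from limma without adjustment for the number of probe sets. The interval excluded 0 at 2 probe sets, the dim one of Dhh at 1.18 and the brightest of Smo at -0.53.

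Gli2, the main activator among the Gli factors, gave lower values at both probe sets. The brighter stood at 9.70, 9.36 and 9.74 in wild-type and at 9.12, 9.26 and 9.25 in heterozygous replicates 1, 2 and 3. The genotypes did not overlap, and the heterozygous arrays lay close together. Its difference was -0.39 (standard error 0.16, limma p = 0.0550, adjusted p = 0.933, exact permutation p = 0.1), or 1.31-fold brighter in wild type. The dimmer probe set was designed from the same sequence record. Its suffix marks probes that may match further transcripts, as at the brightest Smo probe set. The dimmer gave 7.81, 8.33 and 8.39 against 8.13, 7.82 and 7.31. Wild-type replicate 1 lay among the heterozygous arrays there, and the difference was -0.42 with a standard error of 0.28. Over the alternatives it ranged from -0.52 to -0.23 at the brighter and from -0.61 to -0.20 at the dimmer probe set, and was never positive. The value of the dimmer was -0.22 once the 3' to 5' ratio entered the fit and -0.20 without heterozygous replicate 3.

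Gli1, an activator and a transcriptional target of the pathway, was read by 1 probe set, which stood at 7.90, 7.98 and 8.20 in wild-type and at 8.36, 8.41 and 8.13 in heterozygous replicates. Only heterozygous replicate 3 fell within the wild-type range. The difference of 0.27 had a standard error of 0.16 (limma p = 0.142, adjusted p = 0.933, exact permutation p = 0.2) and lay between 0.21 and 0.37 under all alternatives. With the scaling of the authors in place of quantile normalization the intensities were 240, 251 and 284 against 320, 349 and 290, and the genotypes did not overlap. The small difference of Gli1 thus had the opposite sign to those of Smo and Gli2, and none of the 3 genes passed the threshold.

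Gli3, the main repressor among the Gli factors, differed little at its brighter probe sets. They gave 8.08, 8.03 and 8.37 against 8.11, 8.28 and 8.39, and 7.72, 7.49 and 7.35 against 7.53, 7.56 and 7.36, in wild-type and heterozygous replicates 1, 2 and 3. The differences of 0.10 and -0.04 had 95% confidence intervals of -0.31 to 0.51 and -0.43 to 0.36, and the second turned to 0.06 without wild-type replicate 1 and 0.02 without heterozygous replicate 3. A dim Gli3 probe set gave 4.51, 3.72 and 4.49 against 4.77, 5.57 and 4.53, with no overlap but with heterozygous replicate 3 only just above wild-type replicate 1. Its difference was 0.72 (standard error 0.36, limma adjusted p = 0.933).

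**Figure D3:**
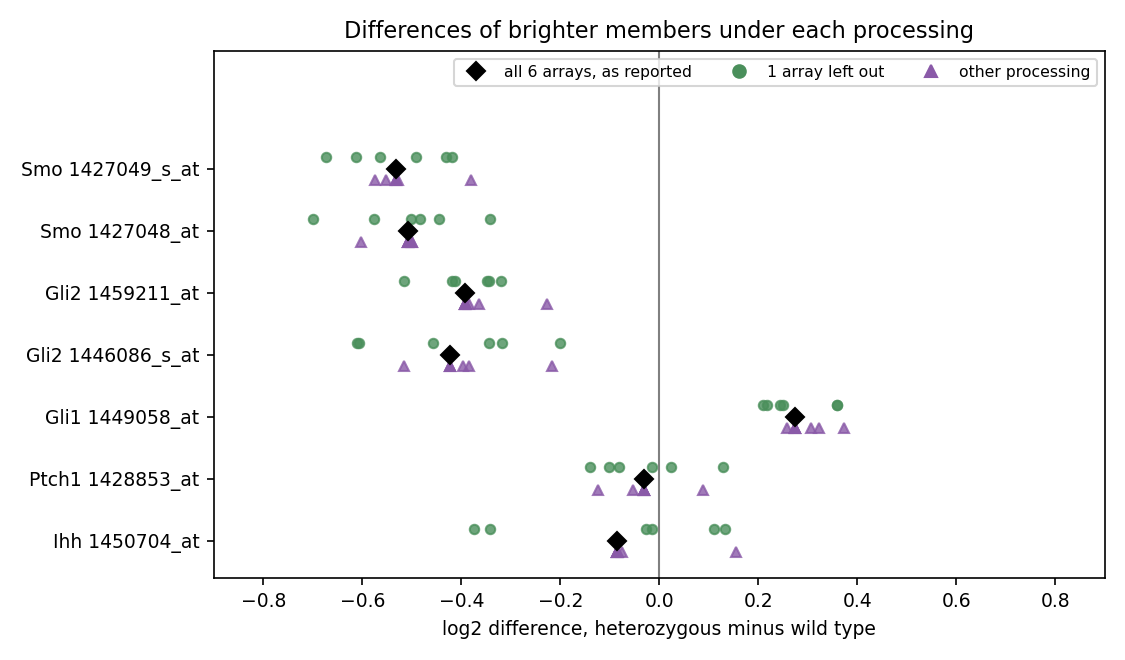
Log2 difference, heterozygous minus wild type (horizontal axis), of the brighter probe sets of Smo, Gli2, Gli1, Ptch1 and Ihh under each processing; black diamonds are the reported values from all 6 arrays, green circles leave out 1 array each, and purple triangles are the other alternatives. Smo and Gli2 stay left of 0 and Gli1 stays right of it at every setting, while Ptch1 and Ihh lie on both sides.

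Cell type markers were read in the same samples, and with limma 0 markers of any list passed the threshold. An unadjusted p under 0.05 was found for 3 of 6 smooth muscle, 3 of 3 adipocyte, 2 of 5 uterine, 1 of 5 endothelial and 1 of 5 mesothelial markers. All of these were higher in heterozygous samples. The other lists had 0 such markers, and the share over all probe sets was 5.18%. The genotypes did not overlap for 5 of 6 smooth muscle, 3 of 3 adipocyte, 3 of 5 uterine and 0 of 6 stromal markers, against 10.5% of all probe sets. They did not overlap for 1 marker each of secretory epithelium, multiciliated cells, mesothelium, endothelium and ovary, and for 0 of 4 Schwann cell markers. Sums are of deposited intensities, before quantile normalization, while higher and lower were counted on normalized values. The summed intensity of the 5 measured multiciliated cell markers was 12152 to 12861 in wild-type and 9753 to 11844 in heterozygous arrays, with 4 of 5 lower. That of the 6 smooth muscle markers was 27372 to 34130 and 31111 to 43152, with 6 of 6 higher, and that of the 5 endothelial markers 1827 to 2324 and 2458 to 3002, with 5 of 5 higher. The 6 stromal markers summed to 37135 to 43171 and 38332 to 45072, with 5 of 6 higher. For the 3 measured adipocyte markers the sums were 214 to 278 and 598 to 1291, with 3 of 3 higher. Secretory epithelial markers summed to 50492 to 63325 and 54088 to 58724 (4 of 6 higher), and mesothelial markers to 12253 to 14824 and 12012 to 12866 (3 of 5 higher). The mesothelial sum includes Wt1, the targeted gene. Its deposited intensities were 4526, 4246 and 3323 in wild-type and 2253, 2452 and 3468 in heterozygous replicates. Uterine markers summed to 11337 to 13982 and 14403 to 16469 (4 of 5 higher). Most of that sum was Ltf, at 10080 to 13948. Cxcl15 was higher by 2.50 on the log2 scale without overlap (limma adjusted p = 0.105), and Foxa2 stood at -0.06. No marker of these lists had a mean deposited intensity at the floor of 1. Prss28 of the uterine list was nevertheless dim, at 2.42 to 17.9, so this does not show detection. The part of any of these cells in the values of Smo, Gli2 and Gli1 was not tested.

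The start of the Smo and Gli2 genes is shown because these members lay lower at every probe set, and that of Hhip because it shares a sequence match with Gli2. The windows run from 250 bases before to 50 bases after the annotated start, 5′ to 3′ on the gene's strand, from RefSeq on build GRCm38.p6. They lie at chr6:29735247-29735546 (plus strand) for Smo, chr1:119053570-119053869 (minus strand) for Gli2 and chr8:80057959-80058258 (minus strand) for Hhip. Capitals mark GCGGGGGCG, a site that Wt1 and the Egr factors are known to bind.
Smo: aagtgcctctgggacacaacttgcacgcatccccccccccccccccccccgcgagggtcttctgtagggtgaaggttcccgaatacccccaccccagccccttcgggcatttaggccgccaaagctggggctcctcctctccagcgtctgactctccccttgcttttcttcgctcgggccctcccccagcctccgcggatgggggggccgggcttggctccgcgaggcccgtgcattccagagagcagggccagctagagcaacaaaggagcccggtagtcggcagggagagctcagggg
Gli2: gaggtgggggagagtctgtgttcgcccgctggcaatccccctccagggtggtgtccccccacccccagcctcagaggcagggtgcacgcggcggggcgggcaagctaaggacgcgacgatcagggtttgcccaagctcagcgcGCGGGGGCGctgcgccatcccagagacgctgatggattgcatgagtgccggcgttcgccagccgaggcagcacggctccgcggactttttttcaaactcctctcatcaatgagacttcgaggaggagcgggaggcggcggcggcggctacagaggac
Hhip: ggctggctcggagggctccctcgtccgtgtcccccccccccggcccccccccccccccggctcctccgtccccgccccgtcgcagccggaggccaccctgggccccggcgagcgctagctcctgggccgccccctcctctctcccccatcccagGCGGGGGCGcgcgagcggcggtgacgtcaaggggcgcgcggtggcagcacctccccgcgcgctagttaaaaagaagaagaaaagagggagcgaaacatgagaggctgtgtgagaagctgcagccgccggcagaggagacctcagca

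Windows for 7 of the 9 members were matched by symbol, and Shh and Gli1 were not among them. GCGGGGGCG was searched on both strands and occurred in 2 of the 7, Gli2 and Hhip, against 2.91% of all 32851 windows of that length. The 7 windows were rich in G and C, at 61.7% to 76.3%, where the median of all windows was 52.7%. The Gli site GACCACCCA, likewise searched on both strands, occurred in 0 of the 7 and in 0.253% of all windows. Gli2 with a match lay lower and Hhip with a match showed no common direction over its probe sets, while Smo lay lower without a match. Ihh, Dhh, Ptch1 and Gli3 also had no match. Ihh differed by -0.09 at its 1 probe set, and the probe sets of Dhh, Ptch1 and Gli3 pointed both ways. A match describes letters in this window and is neither a tested binding site nor a cause.

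Beyond the 9 members, 39 of 41 listed pathway genes were measured, each read at its probe set of highest mean. With limma 0 of the 39 passed the threshold (smallest adjusted p 0.933), and 1 had an unadjusted p under 0.05, against 5.18% of all probe sets. The genotypes did not overlap in 6, against 10.5% of all probe sets and 11.8% of those with a higher group mean above the array median. Of these genes 19 were higher and 20 lower, with a median difference of -0.01, beside -0.01 over all probe sets. Named are the pair of smallest p in each group, and Gas1, Cdon, Sufu, Kif7, Foxf1 and Nr2f2, which were chosen after their values were seen.

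Genes that acylate, release or carry the ligands (Hhat, Disp1, Scube1, Scube2 and Scube3) gave 4 higher and 1 lower, with 0 past the threshold and a median of 0.08. Hhat, the acyltransferase of the ligands, had a difference of 0.26 and Scube1, a secreted protein, of -0.31. Both overlapped between the genotypes, and their signs turned without 1 array, Hhat to -0.28 without wild-type replicate 3 and Scube1 to 0.05 without heterozygous replicate 1.

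Among the surface partners of Ptch1, 3 of 4 were higher, 0 passed, and the median was 0.25. Boc, a co-receptor, stood at 9.62, 9.57 and 9.46 in wild-type and 9.87, 9.87 and 9.79 in heterozygous replicates. All heterozygous arrays were above all wild-type arrays, by a mean of 0.29 (limma p = 0.0668, adjusted p = 0.933, exact permutation p = 0.1), while its other probe sets gave 0.08 and 0.85 with overlap. Lrp2, an endocytic receptor that takes up Shh, was higher by 0.45 with overlap, by 0.71 without heterozygous replicate 1 and by 0.26 without heterozygous replicate 2. Its other probe sets gave 0.68, without overlap, and 0.14. Gas1 and Cdon, further co-receptors, stood at 0.21 and -0.13.

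Of the 11 regulators between Smo and the Gli factors 5 were higher and 6 lower, 0 passed, and the median was -0.04. Stk36, the fused kinase homologue that is also needed for motile cilia, gave 9.44, 9.58 and 9.41 against 9.17, 8.95 and 9.23. The genotypes did not overlap, with a difference of -0.36 (limma p = 0.0541, adjusted p = 0.933, exact permutation p = 0.1). A dim second probe set gave 0.18, with overlap. Gpr161, a ciliary receptor that restrains the pathway, was higher by 0.24 at its brighter probe set, with overlap, and lower by 1.44 at a dimmer one, without overlap, so the readings of this gene disagree. Sufu, the cytoplasmic inhibitor that binds Gli proteins, stood at -0.07 and Kif7, a ciliary kinesin, at -0.10.

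Ciliary transport genes, which serve both primary and motile cilia, were lower in 7 of 8, with 0 past the threshold and a median of -0.09. Tulp3, an adaptor that carries receptors into cilia, gave 10.12, 10.34 and 10.39 in wild-type and 10.12, 10.01 and 9.97 in heterozygous replicates, a difference of -0.25. Its other probe sets gave 0.16 and -0.10, with overlap, and the average over its probe sets gave -0.065. Ift88, a subunit of the transport trains, gave 11.09, 11.24 and 11.09 against 11.06, 10.69 and 10.96, a difference of -0.24. In both the genotypes were separated by a narrow margin only. The lower sum of multiciliated cell markers given above stood in the same arrays, and its part in these values was not tested.

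Of 11 genes reported elsewhere to respond to Hedgehog signals, 6 were higher and 5 lower, 0 passed, and the median was 0.12. Foxf2, a forkhead factor of gut and tract mesenchyme, gave 2.53, 5.22 and 2.24 in wild-type and 5.43, 6.20 and 5.13 in heterozygous replicates. Wild-type replicate 2 lay among the heterozygous arrays, and the rest of the wild type far below. The difference was 2.25 (limma p = 0.0378, adjusted p = 0.933, exact permutation p = 0.2) at a dim level, and 1.16 with log2 of the intensity plus 16. A dimmer Foxf2 probe set gave 0.90, with overlap. Ccnd2, cyclin D2, stood at 10.33, 10.30 and 10.68 against 10.73, 10.86 and 10.72, higher by 0.34 with a narrow gap between the genotypes. All 7 Ccnd2 probe sets were higher, by 0.09 to 1.85. Foxf1 was at 0.36 and Nr2f2, a nuclear receptor of reproductive tract stroma downstream of Ihh, at 0.12, both with overlap.

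**Figure D4:**
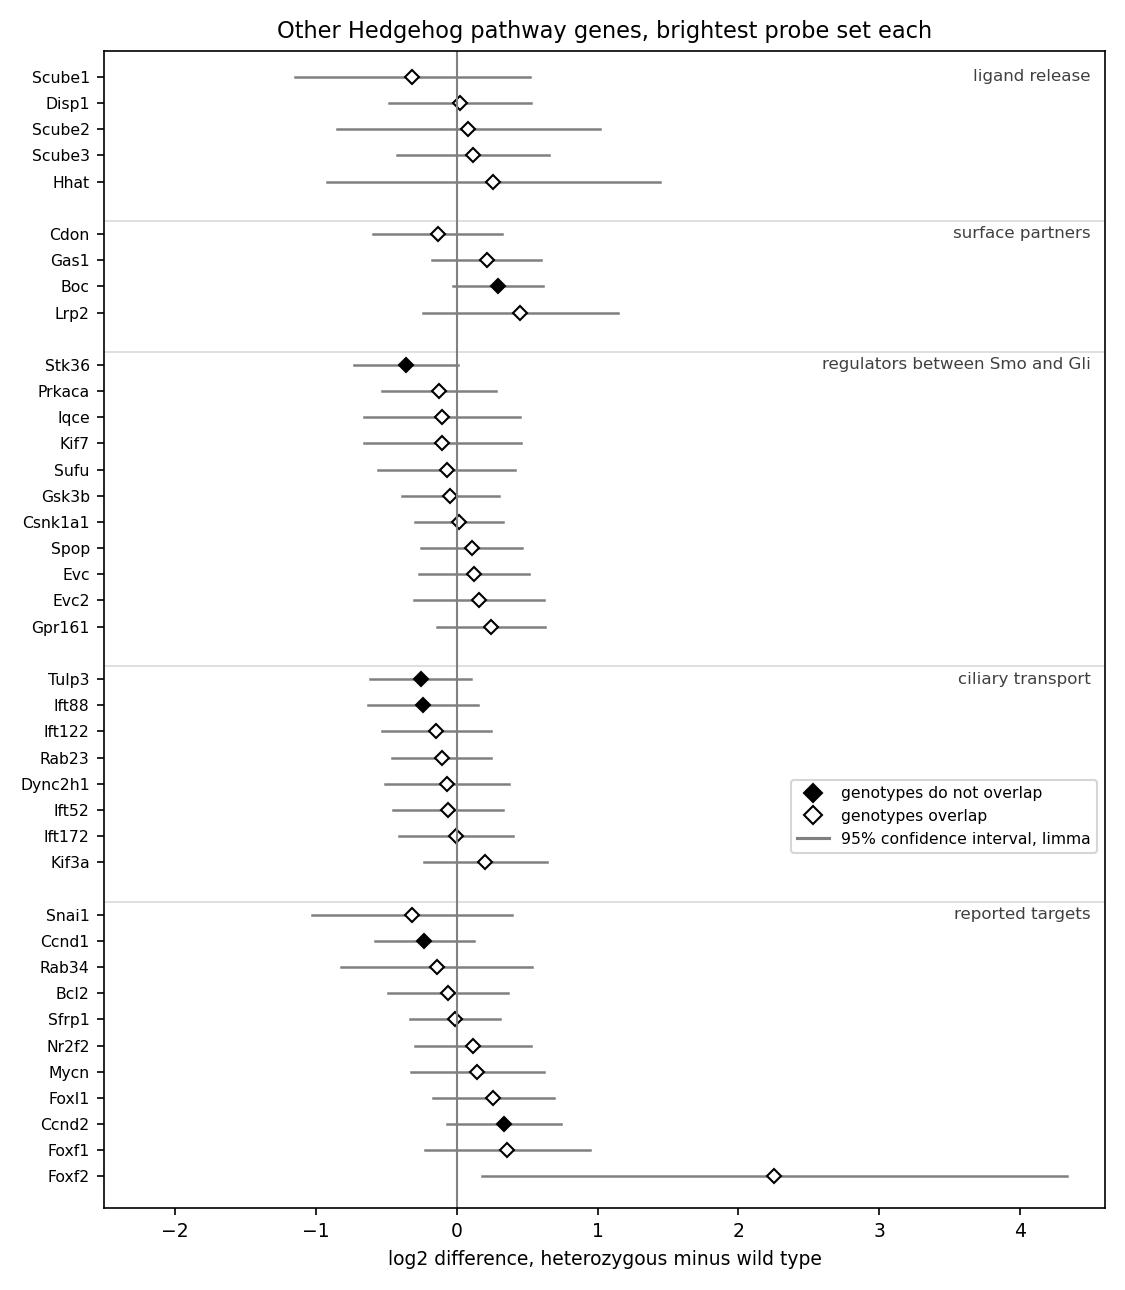
Log2 difference, heterozygous minus wild type (horizontal axis), of 39 further Hedgehog pathway genes at their brightest probe set, grouped by role; filled diamonds are genes whose genotypes did not overlap, and lines are 95% confidence intervals from limma without adjustment. All but Foxf2, at 2.25, lie between -0.36 and 0.45.

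The genes whose pattern over the 6 arrays was most like that of a member were found among the other 11710 genes with a brightest probe set above the array median, by the root mean square difference of mean-centred log2 values. For Ihh they were Cd248, Nectin1 and Mindy4, at 0.0891, 0.0988 and 0.121, where the median gene was at 0.428. For Ptch1 they were Nufip2, Mtrf1l and Atrx, at 0.0396, 0.0406 and 0.0412, where the median was 0.260. For Gli1 they were Plpp1, Msn and Gpr161 (at the brighter of its probe sets, which disagreed), at 0.0480, 0.0531 and 0.0559, where the median was 0.255. This is a description of 6 arrays and carries no test.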

How the data were processed

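Gene expression was measured in 6 oviduct samples with 1-colour, biotin-labelled 3' expression arrays. The deposited file holds a linear intensity for each of the probe sets in each array; the program that made it is not named in the sources used. The 2% trimmed mean was the same in all 6 arrays, so the deposited values had been scaled, as found from the values. After 64 control probe sets were left out, 45037 remained. Intensities were floored at 1 before log2. Array medians spanned 0.15 on the log2 scale, above a limit of 0.1, so arrays were quantile normalized. Differences came from lmFit and eBayes of limma 3.58.1 (R 4.3.3), in a script tested on simulated data; errors are moderated standard errors or SDs over 3 arrays. The number of arrays limits the precision.

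Annotation symbols of the 21 Hedgehog probe sets matched RefSeq through Entrez identifiers in 21 cases, with 0 symbols changed. Named were all members, any pathway gene past the threshold, the 2 of smallest p per group, the genes most alike to Ihh, Ptch1 and Gli1, and Wt1; Gas1, Cdon, Sufu, Kif7, Foxf1 and Nr2f2 were added after their values were seen. Members and lists were chosen with earlier results of these data known. Alternatives were the scaling of the authors, log2 of the intensity plus 16, no dim probe sets, no probe sets of suffix _s_at or _x_at, array weights, eBayes with trend and robust, a replicate block, the 3' to 5' Actb ratio as a covariate, averaging a gene's probe sets, and leaving out each array.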

Additional observations from a re-analysis of the deposited data

How the results depend on the processing

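With limma, 0 of the 21 Hedgehog probe sets and 0 of the 39 other pathway genes passed under every alternative run; the smallest adjusted p of a Hedgehog probe set was 0.199, with array weights, and 1 to 4 had an unadjusted p under 0.05, against 4.02% to 13.1% of all probe sets. The count of 4 came with array weights, where 13.1% of all probe sets had such a p, and with log2 of the intensity plus 16, where 5.50% had. Same-numbered arrays deviated with correlations of -0.16, -0.02 and -0.09, and differently numbered arrays with -0.06 to 0.13. With 3 arrays per genotype this cannot decide whether the replicate number pairs samples. In the limma fit with the replicate block 0 members passed (adjusted p = 0.996 at the lowest). Over the array, 3 probe sets passed, but 1 with log2 of the intensity plus 16, 14 with array weights, 0 with the replicate block, 0 with the 3' to 5' covariate and 0 to 1 without 1 array. Members without overlap numbered 4, against 10.5% of all probe sets, 5 with the deposited scaling (10.1%), 2 of 9 without dim probe sets (11.8%) and 5 to 8 without 1 array (16.8% to 30.6%).

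The sign held under all alternatives at 14 of 21 Hedgehog probe sets. With the 3' to 5' covariate it turned for the dimmer Shh probe set (-0.20), Ihh (0.15), the dimmest of Smo (0.56) and Hhat (-0.29). With array weights it turned for the bright Ptch1 probe set (0.087) and a Hhip probe set (0.20), and when all its probe sets were averaged for Gpr161 (-0.60). Without 1 array the values ranged from -0.27 to 1.34 (Shh, dimmer), -0.38 to 0.13 (Ihh), -0.14 to 0.13 (Ptch1, bright), -1.42 to 0.57 (Smo, dimmest), -0.12 to 0.061 (Gli3, the one at -0.04), -0.42 to 0.28 and -0.14 to 0.43 (Hhip, those at -0.14 and 0.22), -0.54 to 0.047 (Scube1) and -0.28 to 0.59 (Hhat). None of these was past the threshold, and the cause was not tested.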
